A study of Mus musculus with 2 samples.

Results

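Pla2g7 and 9 genes that make eicosanoids, the oxygenated products of arachidonic acid, were followed in cultured mouse macrophages. These were Pla2g4a, Ptgs1, Ptgs2, Ptges, Hpgds, Tbxas1, Alox5, Alox5ap and Ltc4s. Members were found by the transcript accession of each gene probe on the array, which gave 14 probes for these 10 genes among 22910 named genes, and the scanner flagged all 10 as well above background on at least 1 array, which is called detected here. They were chosen by their role and with the values of these same arrays already known, Pla2g7 for its very large difference, so every difference given here is a description and no test was made.

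RNA came from 1 culture of primary macrophages, the cells grown from total bone marrow of C57BL/6 mice and collected at day 5, and from 1 culture of self-renewing macrophages, collected after passage 4. Both were labelled male and were grown with 100 ng/ml rhM-CSF, recombinant human macrophage colony-stimulating factor, and neither label names a genetic change or another treatment. The self-renewing cells are those that grew out as colonies when most of the repeatedly detached and reseeded macrophages had stopped dividing, and by the study's methods a sample not named as a clone is a mixed population. Each culture was measured on 1 Agilent array with 1 dye, both on 1 slide and scanned together, so that cell type, time in culture and array cannot be told apart.

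Both arrays held genes used as macrophage markers, though not all are exclusive to macrophages. Ptprc, for example, encodes CD45, which the study used as a marker of hematopoietic cells. All 8 genes of a macrophage list were detected on both, among them Csf1r, the receptor for M-CSF, at an intensity of 113750 in the primary and 153276 in the self-renewing macrophages, and the summed level of the list was 877 and 1197 times the array's 75th percentile. The list was not uniform, as Fcgr1, the high-affinity IgG receptor, was 3.39-fold lower on the self-renewing array and Mertk, a receptor for apoptotic cells, 4.68-fold higher, while the other 6 differed by less than 2-fold. In donor sex, the primary array went against its label. Of 4 Y-linked genes looked up, 0 were detected in the primary and 4 in the self-renewing macrophages, while Xist, the RNA that coats an inactive X chromosome, was detected in the primary macrophages only. Donor sex and cell type therefore cannot be told apart in any value below. Over the whole array, 34810 probes were detected in the primary and 33095 in the self-renewing macrophages, and 0 spots were saturated. Signals are background-corrected intensities in scanner units, and differences are log2 of the self-renewing over the primary signal after each signal was divided by its array's 75th percentile, which was 434 and 446. The ± beside a signal is the error that the scanner software models for that spot, not a spread between cultures, of which there was 1 each. No difference below therefore has a replicate check.

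Eicosanoids are short-lived lipid signals that cells make on demand. Cytosolic phospholipase A2 frees arachidonic acid from membrane phospholipids, and the acid then enters the cyclooxygenase branch, which yields prostaglandins and thromboxane, or the lipoxygenase branch, which yields leukotrienes. The same cut leaves a lysophospholipid from which platelet-activating factor, PAF, can be made, and the secreted enzyme encoded by Pla2g7 breaks PAF and oxidised phospholipids down. Macrophages are a major source of both kinds of eicosanoid, and in atherosclerotic lesions they are also a source of the Pla2g7 enzyme.

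Pla2g7, the PAF acetylhydrolase of plasma also known as lipoprotein-associated phospholipase A2, was detected in the primary macrophages only. This held for all 3 of its probes. The brightest gave an intensity of 7365 ± 737 in the primary and 5.85 ± 2.79 in the self-renewing macrophages, where the lowest intensity well above background on the array was 13.2. The other probes gave 2928 against 3.35 and 1067 against 2.75. Since the self-renewing signal was not well above background, each difference is a bound, at least 576-fold lower by the brightest probe and at least 229-fold and 83.5-fold lower by the others. The size of each bound follows the probe's brightness in the primary macrophages and says nothing of where below the limit the true level lay. Bounds give no order of the true differences. By the size of the bound alone, the genes next to Pla2g7 among the 1181 detected in the primary macrophages only were S100a9 and S100a8 at -10.96 and -9.64 log2 on the larger side and Mgst1 and Uck2 at -8.73 and -8.61 log2 on the smaller side, against -9.17 log2 for Pla2g7. S100a8 and S100a9 encode the calcium-binding alarmins of neutrophils and monocytes, and Mgst1 a membrane-bound glutathione transferase.

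Markers of other cell types that a bone marrow culture can hold were also lower in the self-renewing culture. Of 11 neutrophil markers on the array, 10 were detected and 8 of these were lower by 2-fold or more, with the summed level of the list at 121 in the primary and 6.70 in the self-renewing macrophages. Of 8 megakaryocyte and platelet markers 4 were lower by 2-fold or more, with a summed level of 262 and 57.7, nearly all of it from Pf4 at an intensity of 111068 and 24187. Eosinophil markers summed to 1.53 and 0.857, with Epx detected on neither array, and mast cell and basophil markers to 0.486 and 0.322, with Cpa3, Ms4a2 and Gata2 on neither. Their part in the difference of Pla2g7 was not tested. In bulk RNA, fewer cells of a type and less RNA per cell cannot be told apart.

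To show what lies next to the start of each gene that differed by at least 2-fold, the 250 bases upstream of an annotated transcription start are printed with the genes below, from RefSeq on GRCm38.p6. Such windows were found for 9 of the 10 genes, with Alox5ap the exception, and were searched on both strands for 6 motifs. These were the ETS core GGAAGT, present in 19.7% of 32851 windows of all genes, the C/EBP palindrome TTGCGCAA in 0.164%, the CRE core ACGTCA in 6.47%, the E-box CACGTG in 6.02%, the GC box GGGCGG in 32.7% and the TATA box TATAAA in 12.4%. The motifs do not overlap in the printed windows, and capitals mark every match. The Pla2g7 window lies at chr17:43568201-43568450 on the plus strand and holds a GC box on the opposite strand, 8 bases before the start.
Pla2g7: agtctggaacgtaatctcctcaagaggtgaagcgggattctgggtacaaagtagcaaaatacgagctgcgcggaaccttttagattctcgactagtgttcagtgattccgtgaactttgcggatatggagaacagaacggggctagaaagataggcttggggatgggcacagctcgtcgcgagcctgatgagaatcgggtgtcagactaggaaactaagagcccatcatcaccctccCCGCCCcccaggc

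Of the 10 genes, 5 stood higher by 2-fold or more in the self-renewing macrophages, Pla2g4a, Ptgs1, Ptgs2, Alox5 and Ltc4s, and Pla2g7 alone stood lower by that much. Over all 15515 named genes detected on either array, 4.76% were higher and 8.38% lower by 2-fold or more. As the genes were picked with this contrast in view, nothing is read from the count. With the values as the authors scaled them, which raise every gene by 0.19 log2 in the self-renewing macrophages, 1035 of all genes were higher and 1069 lower in place of 739 and 1300, and the member counts were again 5 and 1. The remaining genes, Ptges, Hpgds, Tbxas1 and Alox5ap, differed by less than 2-fold. Nearest to the threshold stood Alox5 inside it, at 2.04-fold, and Hpgds outside it, at 1.51-fold.

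**Figure D1:**
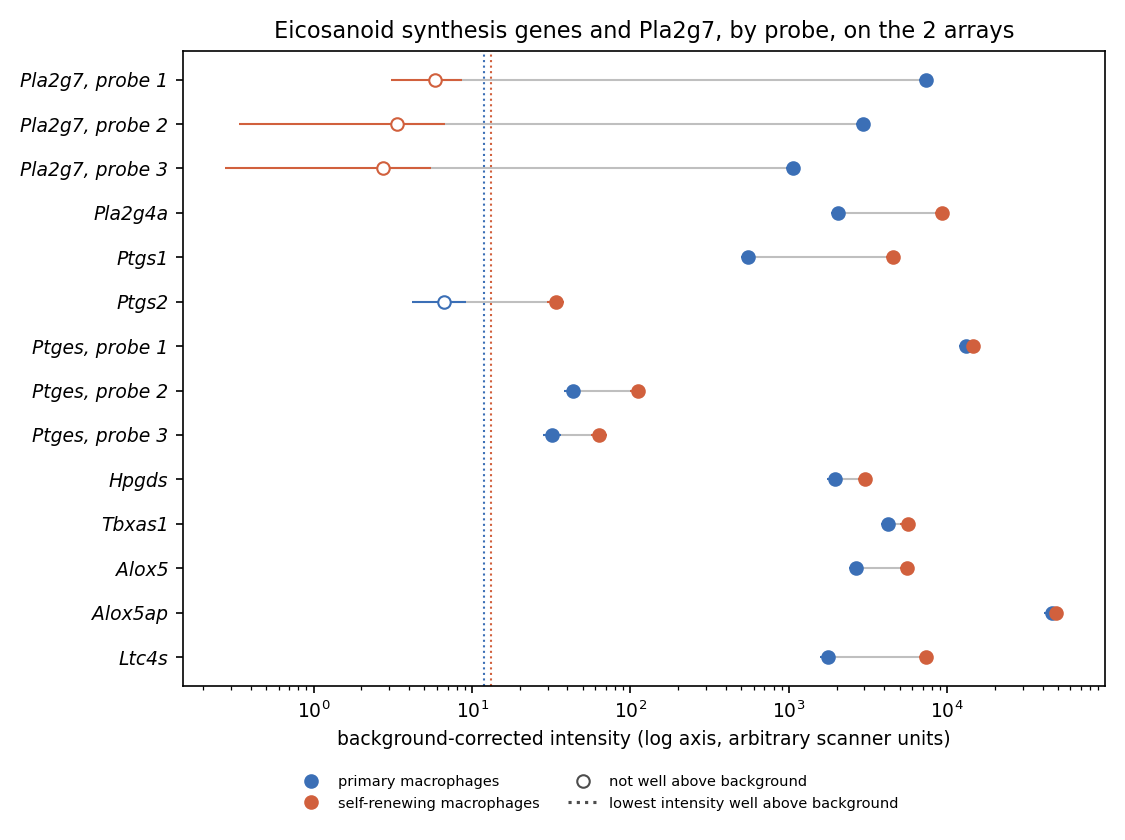
Background-corrected intensity (x axis, log scale, scanner units) of the 14 probes of the 10 genes on the primary (blue) and self-renewing (orange) array, where error bars are the modelled error of the spot, cut short where they would reach 0, and open points were not well above background. All 3 Pla2g7 probes drop below the dotted limits of 11.8 (primary) and 13.2 (self-renewing) in the self-renewing macrophages, while Ptgs1, Pla2g4a and Ltc4s lie clearly to the right of their primary signals.

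Pla2g4a encodes cytosolic phospholipase A2, which releases the arachidonic acid that both branches use. Its signal was 2046 ± 205 in the primary and 9250 ± 925 in the self-renewing macrophages. The self-renewing signal was thus 4.39-fold higher, a difference of 2.14 ± 0.20 log2 by the modelled spot errors. RefSeq gives Pla2g4a a pair of start windows. The one printed, chr1:149961291-149961540 on the minus strand, holds no match to the 6 motifs, and the other holds the ETS core and the TATA box.
Pla2g4a: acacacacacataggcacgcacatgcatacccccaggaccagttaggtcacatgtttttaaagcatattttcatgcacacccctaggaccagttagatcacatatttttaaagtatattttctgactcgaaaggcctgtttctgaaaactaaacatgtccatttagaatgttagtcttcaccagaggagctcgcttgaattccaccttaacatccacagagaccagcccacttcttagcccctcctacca

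A list of 22 further phospholipases and acyl-remodelling genes had 15 detected, of which 0 were higher and 3 lower by 2-fold or more, with a median of -0.35 log2, against -0.02 log2 over all genes. The 3 were Lpcat3, which puts arachidonate back into phospholipids and was 2.44-fold lower, with both probes at -1.28 and -1.29 log2, Daglb, a diacylglycerol lipase, 2.08-fold lower, and Pla2g5, a secreted phospholipase, at least 2.84-fold lower from a dim signal of 36.4 in the primary macrophages. Daglb fell short of 2-fold with the authors' scaling, at -0.87 log2. With the normexp background correction, explained below, Pla2g5 was at -0.60 log2, under 2-fold. Mgll counted as under 2-fold by a probe with 52.9 in the primary and 42.4 in the self-renewing macrophages, 1.28-fold lower. A second Mgll probe, with 110 and 2.93, was at least 8.63-fold lower, and the mean over the probes of Mgll was -1.73 log2.

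The cyclooxygenase branch starts with prostaglandin H synthase, which exists as the constitutive form Ptgs1 and the inducible form Ptgs2. Ptgs1 had a signal of 551 ± 55.1 in the primary and 4528 ± 453 in the self-renewing macrophages. At 7.99-fold, or 3.00 log2, it was the member with the largest difference among those measured on both arrays. Ptgs2 was dim throughout. Its signal was 6.66 ± 2.50 in the primary macrophages, not well above background, and 33.9 ± 4.30 in the self-renewing macrophages, so it was at least 2.79-fold higher there. With the normexp background correction, which adds an offset to every signal, the Ptgs2 difference was 0.54 log2, under 2-fold. Neither label names a stimulus of the kind that induces Ptgs2. The Ptgs1 window, chr2:36230176-36230425 on the plus strand, holds the ETS core 17 bases before the start. The Ptgs2 window, chr1:150099781-150100030 on the plus strand, holds the C/EBP palindrome 62 bases and a GC box 165 bases before the start.
Ptgs1: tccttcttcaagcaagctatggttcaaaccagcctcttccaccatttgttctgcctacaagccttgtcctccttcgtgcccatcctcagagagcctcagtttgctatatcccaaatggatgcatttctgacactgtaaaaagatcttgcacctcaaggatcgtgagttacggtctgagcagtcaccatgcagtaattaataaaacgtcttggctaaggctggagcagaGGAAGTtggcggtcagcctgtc
Ptgs2: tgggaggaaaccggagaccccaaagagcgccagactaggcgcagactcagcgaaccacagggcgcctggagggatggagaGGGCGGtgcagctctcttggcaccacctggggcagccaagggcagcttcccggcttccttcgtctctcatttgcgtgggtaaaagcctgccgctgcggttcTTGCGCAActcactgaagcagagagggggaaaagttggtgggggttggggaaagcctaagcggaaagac

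The enzymes that turn prostaglandin H2 into the final products differed less than Ptgs1. Hpgds, the haematopoietic prostaglandin D synthase, had 1945 ± 195 in the primary and 3030 ± 303 in the self-renewing macrophages, a difference of 0.60 log2. Tbxas1, thromboxane synthase, had 4224 ± 422 and 5615 ± 562, a difference of 0.37 log2. Ptges, the inducible prostaglandin E synthase, was bright on both arrays by its strongest probe, at 13205 ± 1321 and 14638 ± 1464, a difference of 0.11 log2. These 3 differences were within 3 times the modelled error of 0.20 log2. The Ptges probes did not give the same size, as 2 dim ones read 43.1 and 111, or 1.32 ± 0.22 log2, and 32.1 and 63.6, or 0.95 ± 0.24 log2, and the mean over the gene's 3 probes was 0.79 log2. The difference of Ptgs1 exceeded that of Ptges by 2.89 log2, that of Tbxas1 by 2.63 log2 and that of Hpgds by 2.40 log2. Ptgs1 and Tbxas1 are also abundant in platelets. Of the 8 platelet markers, 4 were lower by 2-fold or more, among them Pf4 at 4.72-fold and Ppbp at least 69.0-fold, and 4 differed by less. The part of platelet RNA in the differences of Ptgs1 and Tbxas1 was not tested. Hpgds is also known from mast cells. Of 9 mast cell and basophil markers on the array 6 were detected, of which 2 were lower by 2-fold or more and 4 differed by less, and their part in the difference of Hpgds was not tested.

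The lipoxygenase branch starts with Alox5, arachidonate 5-lipoxygenase, which needs the membrane protein encoded by Alox5ap to take up its substrate. Alox5 had 2654 ± 265 in the primary and 5556 ± 556 in the self-renewing macrophages, a difference of 1.03 ± 0.20 log2, or 2.04-fold, at the edge of the threshold and at 0.96 log2 with normexp. Alox5ap was bright on both arrays, at 45566 ± 4557 and 48805 ± 4880, and differed by 0.06 log2, less than its modelled error of 0.20 log2. Ltc4s, leukotriene C4 synthase, which joins glutathione to leukotriene A4, had 1759 ± 176 and 7365 ± 737, and was 4.07-fold higher, or 2.03 log2. The difference of Ltc4s exceeded that of Alox5ap by 1.97 log2. Eosinophils, mast cells and basophils also make leukotriene C4. Of the 6 eosinophil markers 5 were detected, of which 3 were lower by 2-fold or more and 2 differed by less, and the part of these cell types in the difference of Ltc4s was not tested. The Alox5 window, chr6:116461179-116461428 on the minus strand, holds a GC box 30 bases before the start, and the Ltc4s window, chr11:50238533-50238782 on the minus strand, holds the ETS core 111 bases before the start.
Alox5: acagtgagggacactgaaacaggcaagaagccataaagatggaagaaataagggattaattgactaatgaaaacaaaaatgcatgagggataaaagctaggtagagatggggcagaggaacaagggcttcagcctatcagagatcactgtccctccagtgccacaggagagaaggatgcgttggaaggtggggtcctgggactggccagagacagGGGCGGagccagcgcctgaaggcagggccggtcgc
Ltc4s: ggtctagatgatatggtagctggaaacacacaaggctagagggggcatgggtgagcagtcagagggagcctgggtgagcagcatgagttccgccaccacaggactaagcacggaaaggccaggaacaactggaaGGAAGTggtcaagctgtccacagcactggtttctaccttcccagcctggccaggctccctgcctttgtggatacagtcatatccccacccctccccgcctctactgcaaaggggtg

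Set side by side, the branches overlapped. The 5 cyclooxygenase genes had a median difference of 0.60 log2 and ranged from 0.11 to 3.00 log2, and the 3 lipoxygenase genes had a median of 1.03 log2 and ranged from 0.06 to 2.03 log2. Without Ptgs2, whose value is a bound, the cyclooxygenase median was 0.48 log2. Each branch held genes with large and with small differences. Among the genes measured on both arrays, which leaves out Ptgs2, the largest difference of the cyclooxygenase branch was at the entry step, Ptgs1, and that of the lipoxygenase branch at the last step, Ltc4s. All 8 genes were on the higher side in the self-renewing macrophages, though Alox5ap and the bright Ptges probe were so by less than the modelled spot error. The medians rest on 5 and 3 genes measured on the same pair of arrays, and the difference between branches was not tested.

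Other genes of the pathway were taken from a list of 79, of which 61 were detected and 18 were not. Higher by 2-fold or more were 6, lower by as much were 15, against 4.76% and 8.38% of all genes, and 40 differed by less, with a median of -0.26 log2 and a range from -6.64 to 3.26 log2. Of the 15 lower genes, 7 were bounds.

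**Figure D2:**
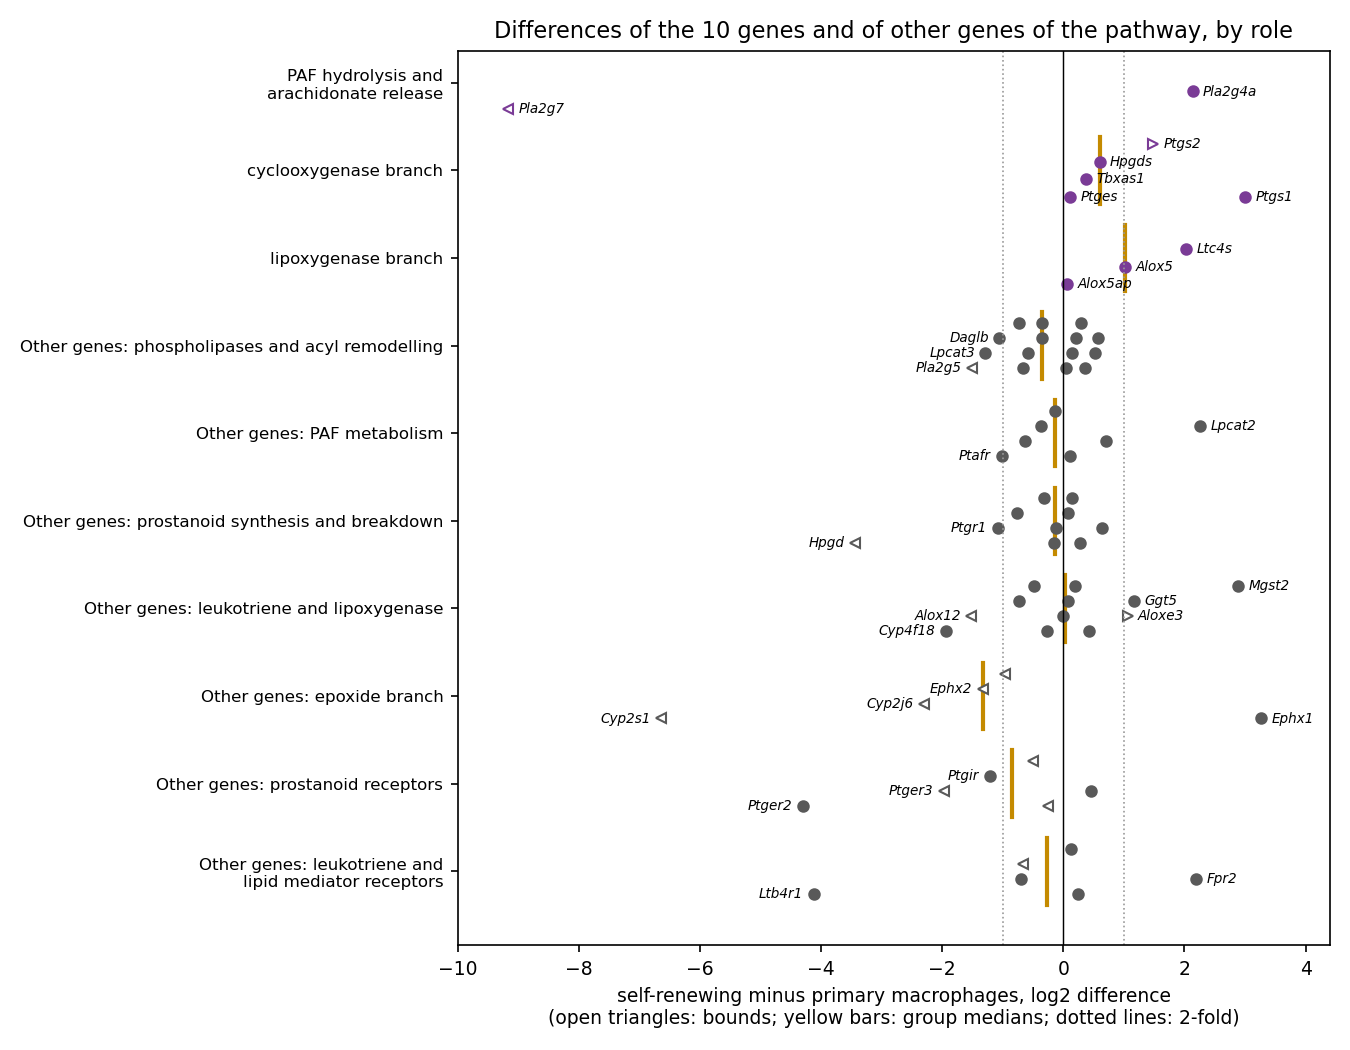
Log2 difference, self-renewing minus primary (x axis), of the 10 genes (purple) and of the 61 other pathway genes detected (grey), grouped by role, with open triangles for bounds, yellow bars for group medians and dotted lines at 2-fold. The cyclooxygenase and lipoxygenase members lie at or to the right of 0, Pla2g7 lies far to the left at -9.17, and the prostanoid receptors and epoxide enzymes lie mostly to the left.

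In PAF metabolism, a synthetic enzyme and the receptor differed in opposite directions. Lpcat2, which acetylates lyso-PAF to make PAF, had 1706 in the primary and 8403 in the self-renewing macrophages and was 4.79-fold higher, with its probes at 2.26 and 2.20 log2. Ptafr, the PAF receptor, had 859 and 436 and was 2.03-fold lower, with its probes at -1.02 and -1.06 log2, and its difference was 3.28 log2 below that of Lpcat2. With the authors' scaling Ptafr fell short of 2-fold. The intracellular PAF acetylhydrolases did not differ by 2-fold as Pla2g7 did. Pafah1b1 stood at 0.71, Pafah1b2 at 0.11, Pafah1b3 at -0.36 and Pafah2 at -0.64 log2, all detected on both arrays.

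Past the members in the leukotriene branch, Lta4h, which makes leukotriene B4 from the same intermediate that Ltc4s uses, was at -0.73 log2, with 3463 in the primary and 2151 in the self-renewing macrophages. Mgst2, a microsomal glutathione transferase that can also make leukotriene C4, had 1314 and 9986 and was 7.39-fold higher, its difference 0.86 log2 above that of Ltc4s. Mgst3 was at 0.42 log2. Ggt5, which trims leukotriene C4 to D4, was 2.25-fold higher between the dim signals 13.5 and 31.3. Cyp4f18, which inactivates leukotriene B4, had 1461 and 393 and was 3.83-fold lower, while a dimmer probe, with 172 and 4.93, was at least 13.5-fold lower. Among other lipoxygenases, Alox12 was at least 2.86-fold lower from 36.6, and Aloxe3 at least 2.09-fold higher at 29.8, and both were dim. With normexp, Ggt5 was at 0.34, Alox12 at -0.45 and Aloxe3 at 0.23 log2, all under 2-fold.

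Ltc4s, Alox5ap, Ptges and the microsomal glutathione transferases belong to 1 family of small membrane proteins, a grouping chosen after the values were seen. Its members ranged from Mgst1 at a bound of -8.73 log2, with 5441 in the primary and 3.05 in the self-renewing macrophages, to Mgst2 at 2.88 log2. Ltc4s at 2.03, Mgst3 at 0.42, Ptges at 0.11 and Alox5ap at 0.06 log2 lay between them. Both Mgst1 probes were detected in the primary macrophages only.

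In the prostaglandin branch, alternative synthases stayed within 2-fold. Ptges2 was at 0.28, Ptges3 at -0.32 and the dim Ptgds at -0.12 log2, and Ptgis, prostacyclin synthase, was detected on neither array. Of the genes that break prostaglandins down, Hpgd, the 15-hydroxyprostaglandin dehydrogenase, had 139 in the primary and 5.15 in the self-renewing macrophages and was at least 10.8-fold lower. Ptgr1, which acts on the product of Hpgd and on leukotriene B4, had 3374 and 1639 and was 2.12-fold lower, though at less than 2-fold with the authors' scaling.

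Besides Ptafr, 4 receptors were lower and 1 was higher by 2-fold or more. Of 9 prostanoid receptor genes 6 were detected, with 0 higher and 3 lower by that much. Ptger2, a receptor for prostaglandin E2, had 264 in the primary and 13.8 in the self-renewing macrophages and was 19.7-fold lower, its self-renewing signal just over the limit of 13.2. Ptgir, the prostacyclin receptor, had 1066 and 473 and was 2.32-fold lower. Ptger3, also a prostaglandin E2 receptor, was at least 3.94-fold lower by 1 probe and at least 1.40-fold by a dimmer one. With normexp, Ptger3 was at -0.77 log2, under 2-fold. Ptger4, another prostaglandin E2 receptor, was at 0.45 log2, with 1110 and 1561. Ptgdr2 and Tbxa2r, the receptors for prostaglandin D2 and thromboxane, had dim signals of 15.3 and 18.0 in the primary macrophages and bounds of -0.26 and -0.50 log2. Of 8 receptors for leukotrienes and other lipid mediators 6 were detected, with 1 higher and 1 lower by 2-fold or more. Ltb4r1, the high-affinity receptor for leukotriene B4, had 585 and 34.5 and was 17.4-fold lower, while the low-affinity Ltb4r2 was at -0.70 log2. Cysltr1, a receptor for the cysteinyl leukotrienes made through Ltc4s, was at 0.12 log2, with 1719 and 1924, and Cysltr2 had a dim bound of -0.67 log2. Fpr2, a receptor for lipoxin and formyl peptides, had 262 and 1234 and was 4.57-fold higher, with a second probe at 3.15 log2. Cmklr1, a receptor for chemerin and resolvin, was at 0.23 log2. Ltb4r1 is also abundant in neutrophils, whose markers were lower on the same array by the amounts given above, and their part in its difference was not tested.

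The epoxide branch, in which cytochrome P450 enzymes oxidise arachidonic acid and epoxide hydrolases open the products, held large differences in both directions. Ephx1, the microsomal epoxide hydrolase, had 4606 in the primary and 45457 in the self-renewing macrophages and was 9.59-fold higher. Cyp2s1 had 1277 and 2.75 and was at least 99.8-fold lower. Cyp2j6 was at least 4.95-fold and the soluble hydrolase Ephx2 at least 2.52-fold lower, both from dim signals of 63.4 and 32.2 in the primary macrophages. With normexp, Cyp2j6 was at -0.84 and Ephx2 at -0.28 log2, both under 2-fold.

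Pla2g4a and Ptgs2 are next to each other on mouse chromosome 1 among the genes measured here, and their other neighbours, looked at after the values were seen, were mostly higher too. Of the 16 measured genes nearest to Pla2g4a, 8 on each side and Ptgs2 among them, 13 were higher in the self-renewing macrophages. By 2-fold or more, 8 were higher and 0 lower, against 4.76% and 8.38% of all named genes detected. Their median was 1.01 log2 and they ranged from -0.31 to 2.37 log2. The window around Ptgs2, the same stretch moved by 1 gene and with Pla2g4a in it, had a median of 1.07 log2. Rgs13 at a bound of 2.37, Ivns1abp at 1.22, Ptgs2os2 at 1.17 and Odr4 at 1.07 log2 were among the higher neighbours, while Rgs2 at -0.01 and Rgs1 at -0.31 log2 were not higher. Ptgs2os2 is a noncoding RNA gene beside Ptgs2 on the opposite strand. Relative to its neighbours' median, Pla2g4a was higher by 1.13 log2 and Ptgs2 by 0.41 log2. The Ptgs2 value is a bound, and some neighbours have bounds too, so the 0.41 log2 is not a limit. The part of the neighbourhood in the differences of Pla2g4a and Ptgs2 was not tested. For the 8 other members, the median of the 16 nearest genes lay between -0.43 log2 for Hpgds and 0.16 log2 for Ptges. Ptgs1 and Ltc4s stood 3.05 and 2.10 log2 above the medians of their neighbours.

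**Figure D3:**
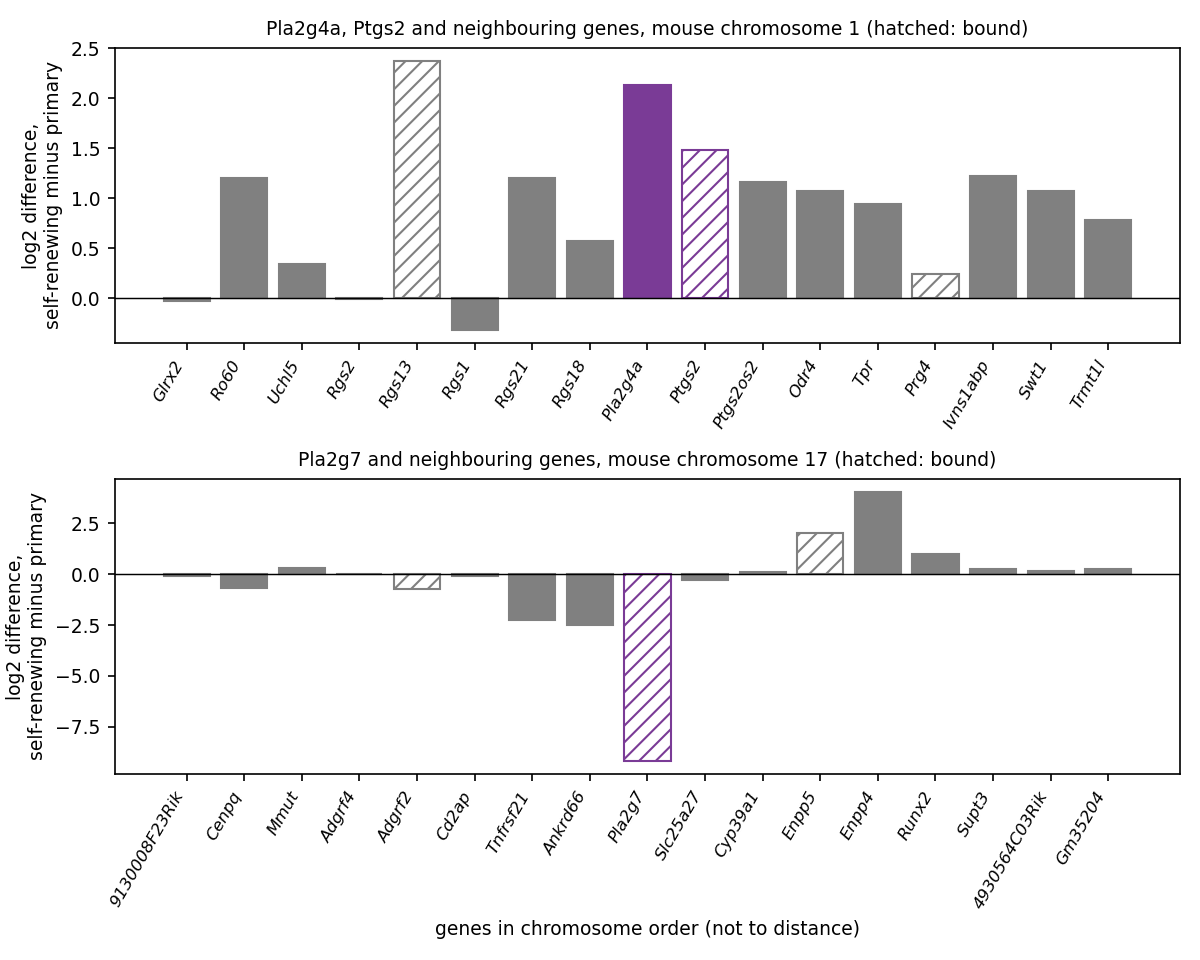
Log2 difference, self-renewing minus primary (y axis), of the genes measured around Pla2g4a and Ptgs2 (top) and around Pla2g7 (bottom), in chromosome order and not to distance, with the members in purple and bounds hatched. Most bars around Pla2g4a and Ptgs2 lie above 0, whereas around Pla2g7 the bars go both ways and none comes near its -9.17.

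Around Pla2g7 on chromosome 17 the neighbours went both ways, with a median of 0.05 log2. The genes just before it, Ankrd66 and Tnfrsf21, were at -2.48 and -2.26 log2, and just after it Slc25a27 was at -0.29, Cyp39a1 at 0.10, Enpp5 at a bound of 2.04 and Enpp4 at 4.04 log2. The 8 genes on either side held 2 that were lower and 2 that were higher by 2-fold or more.

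The members kept their direction under 8 other ways of processing the arrays, where 0 of 78 values changed sign. A shift of 0.325 log2 is the SD that separate probes of a gene showed over 5077 genes, and 72 of the 78 values moved less than that. The 6 that moved by more belonged to Pla2g7, Ptgs2 and Ptges. Pla2g7 ranged from -10.34 log2 without a filter on background to -6.87 log2 with normexp, and had no value when genes had to be well above background on both arrays.

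**Figure D4:**
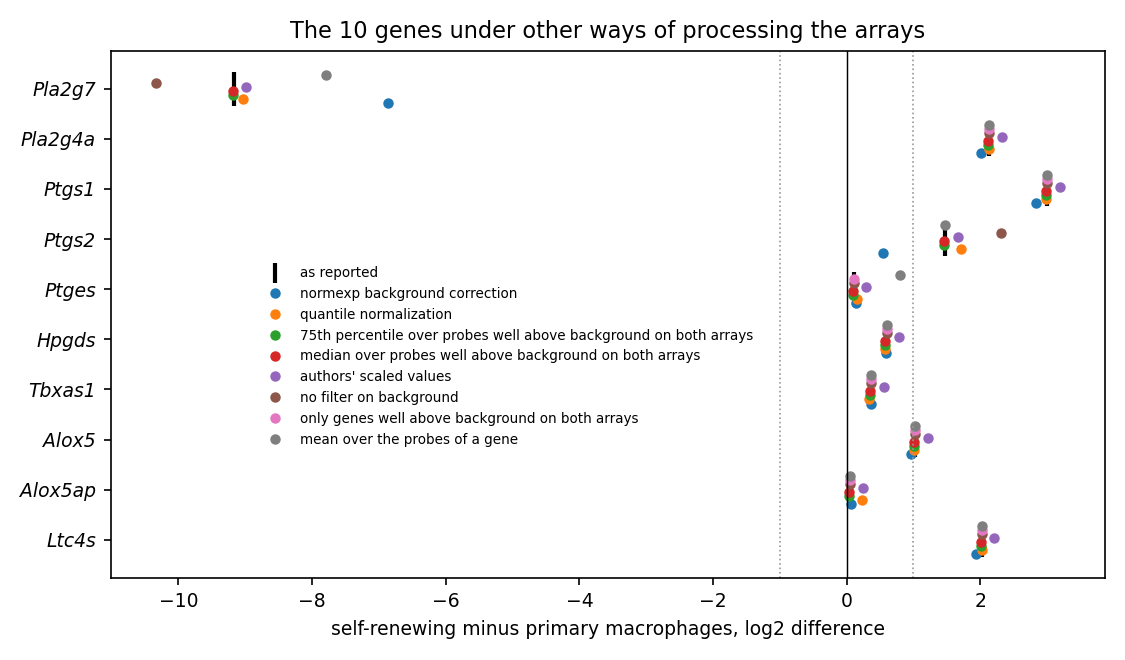
Log2 difference, self-renewing minus primary (x axis), of the 10 genes as reported (black bars) and under 8 other ways of processing (coloured points), with dotted lines at 2-fold. No gene has points on both sides of 0, and only Pla2g7, Ptgs2 and Ptges spread widely.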

How the data were processed

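The authors hybridised Cy3-labelled RNA of 1 culture per cell type to Agilent SurePrint G3 mouse arrays and deposited Feature Extraction 11.5.1.1 output, whose background-corrected intensity is not scaled between arrays. A table deposited by the authors holds the same intensity times 1 constant per array, 1.07 and 1.19, on a basis not given in the sources used here. The array design is on mm9. Here control spots and 63 outlier spots per array were left out, log2 of the intensity was taken relative to the array's 75th percentile, and probes were named through a RefSeq table of GRCm38.p6, which matched 58.3% of 56598 probes. A gene stands by the probe with the highest mean log2 level over both arrays, among its probes above background on at least 1 array. That mean includes signals below background, so a probe bright on 1 array only can be passed over. A gene above background on 1 array has a bound, taken on the dim array against its lowest signal above background or the probe's own signal, whichever is higher.

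Named were all 10 genes, list genes past 2-fold, receptors, genes of adjoining steps and the 4 genes next to Pla2g7 in size. Neighbours and other genes named were chosen after their values were seen. Members and lists were chosen with earlier results of these data known. Precision is limited to 1 array per group. Tools were R 4.3.3 and limma 3.58.1, and Python 3.11.15, numpy 2.4.6, pandas 2.3.3 and matplotlib 3.10.9, and the calculation was tested on simulated data. Alternatives were normexp with an offset of 50, quantile normalization, other scalings, no filter, both arrays only and the probe mean.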

Additional observations from a re-analysis of the deposited data

How the results depend on the processing

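No paired analysis was possible because only 1 array was made of each culture, and no replicate could be left out. Signal over background limits Pla2g7 and Ptgs2, whose values are bounds. With normexp, Pla2g7 was at -6.87 and Ptgs2 at 0.54 log2, 3 members were at least 2-fold higher, 8 pathway genes lower, and over all genes 429 were higher and 750 lower. The eosinophil, megakaryocyte and neutrophil medians were then -0.85, -0.45 and -3.01 log2, against -2.21, -1.27 and -5.22 log2 as reported, and the offset draws dim signals together by construction. Without a filter on background, Pla2g7 was at -10.34 and Ptgs2 at 2.30 log2, 1192 genes were higher and 2336 lower, and the eosinophil, mast cell and megakaryocyte medians were -1.63, -1.21 and -2.68 log2. Restricted to genes detected on both arrays, which leaves out all bounds, 0 members and 8 pathway genes were lower, 782 of all genes were lower, and the eosinophil, mast cell, megakaryocyte and neutrophil medians were -0.00694, 0.0442, -0.0861 and -3.58 log2, where the mast cell median changed from -0.30 log2. With the mean over probes, Pla2g7 was at -7.80 and Ptges at 0.79 log2. Quantile normalization moved no member by more than the SD between probes. The other scalings and the authors' values shift all genes alike by less than this SD, so they could not do so. Leaving Ptgs2 out of its branch was chosen after seeing the data. Of 27 members and pathway genes past 2-fold, 0 changed sign, though under several of these settings many could not.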
